A study of Mus musculus with 22 samples.

Results

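Constant BRG1 sites at gene ends were defined by measured BRG1 region lists of mouse dermal fibroblasts. A site was a region of the BRG1 list of wild-type (WT) cells sonicated for 16 cycles that overlapped by 1 bp or more a region in each of the other 3 BRG1 lists, and that lay within 1 kb of either end of a RefSeq protein-coding gene. The rule kept 7240 sites. They are 16.3% of the 44506 constant BRG1 sites and come from a starting list of 72225 regions. Presence of BRG1 at these sites was therefore fixed by the choice and is given below only as a description.

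The series is a ChIP-seq study of cells lacking the lamin-associated protein Lap2alpha, which are labelled Lap2alpha KO (KO below), set against WT cells of the same kind, which carry no alteration that the labels name. Chromatin was fixed with DSG and formaldehyde and sonicated for 16 or 20 cycles. BRG1, CHD4 and lamin A/C were precipitated in both genotypes, lamin A/C with each of the antibodies 3A6 and E1, and Lap2alpha with the antibody 1H11 in WT cells. Each combination has 1 library, given as a list of genomic intervals with no height or score, so 18 lists are described and no difference could be tested. Input libraries were not analysed here, and no Lap2alpha library of KO cells was analysed, so nothing in these lists checks the knockout. The labels call the cells a cell line and do not say how many clones or animals they came from.

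BRG1, encoded by Smarca4, is an ATPase of the SWI/SNF (BAF) complexes, which slide and evict nucleosomes at promoters and enhancers. CHD4 is the ATPase of the NuRD complex, which pairs nucleosome remodelling with histone deacetylation. Lamins A and C build the fibrous lamina under the nuclear envelope and also occur in the nuclear interior, where Lap2alpha, a splice form of the Tmpo gene product without a membrane anchor, binds them together with the retinoblastoma protein.

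The lists held between 7283 and 233769 merged regions, and the read depth behind them is unknown. The KO list for CHD4 at 20 cycles stood apart with 7283 regions, against 109769 in the matching WT list. The other CHD4 pair had 88788 regions in KO and 49441 in WT cells. For lamin A/C the KO list was the longer one in every pair, by 2.19, 1.24, 2.46 and 1.62 times for 3A6 at 16 and 20 cycles and E1 at 16 and 20 cycles. The part of list length in each difference was not tested, and values at equal list length are given below. All intervals on shares are 95% Wilson intervals. They cover counting error only, and neighbouring sites are not independent.

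The promoters of 7 genes are shown first because their sites carry the contrasts described below. Ccn1, Anxa1, Ankrd1 and Vmp1 have a site with Lap2alpha at both sonication lengths, Piga and Ankrd28 a site with no CHD4 region in any library, and Steap2 a site with CHD4 in all 4. The sequences are RefSeq promoter windows of GRCm38.p6, running 5′ to 3′ on the gene's strand from 250 bases before to 50 bases after the start. The sites cover 131 bases of the Ccn1 window and 105 of the Ankrd28 window, and more of the others. Capitals mark every match, on either strand, to the 12 short motifs named further on. For Vmp1 the window is that of the start, which has a site of its own.
Ccn1, chr3:145649936-145650235, minus strand: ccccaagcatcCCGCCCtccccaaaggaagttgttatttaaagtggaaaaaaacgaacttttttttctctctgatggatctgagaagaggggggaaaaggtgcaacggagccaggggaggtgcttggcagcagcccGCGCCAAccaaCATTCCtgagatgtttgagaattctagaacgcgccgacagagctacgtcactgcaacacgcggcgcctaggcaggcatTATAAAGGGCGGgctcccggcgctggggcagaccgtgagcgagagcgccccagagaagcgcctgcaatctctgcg
Anxa1, chr19:20390622-20390921, minus strand: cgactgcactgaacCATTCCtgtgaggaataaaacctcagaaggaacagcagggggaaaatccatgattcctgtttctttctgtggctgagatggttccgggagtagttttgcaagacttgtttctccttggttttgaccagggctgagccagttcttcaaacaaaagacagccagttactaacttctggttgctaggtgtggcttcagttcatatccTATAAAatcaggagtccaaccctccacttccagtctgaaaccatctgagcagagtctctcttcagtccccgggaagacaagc
Ankrd1, chr19:36119795-36120094, minus strand: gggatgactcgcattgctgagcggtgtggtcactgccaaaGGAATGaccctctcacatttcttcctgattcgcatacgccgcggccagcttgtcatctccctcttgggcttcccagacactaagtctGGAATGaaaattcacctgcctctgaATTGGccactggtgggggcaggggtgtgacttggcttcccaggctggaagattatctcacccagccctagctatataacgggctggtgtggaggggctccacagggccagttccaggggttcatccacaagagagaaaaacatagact
Vmp1, chr11:86683787-86684086, minus strand: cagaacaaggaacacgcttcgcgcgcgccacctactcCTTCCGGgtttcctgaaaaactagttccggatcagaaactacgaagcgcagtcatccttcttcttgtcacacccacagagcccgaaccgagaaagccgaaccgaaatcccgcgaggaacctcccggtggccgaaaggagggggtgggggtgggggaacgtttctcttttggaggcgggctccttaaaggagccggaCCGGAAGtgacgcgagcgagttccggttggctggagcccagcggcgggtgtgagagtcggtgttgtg
Piga, chrX:164419530-164419829, plus strand: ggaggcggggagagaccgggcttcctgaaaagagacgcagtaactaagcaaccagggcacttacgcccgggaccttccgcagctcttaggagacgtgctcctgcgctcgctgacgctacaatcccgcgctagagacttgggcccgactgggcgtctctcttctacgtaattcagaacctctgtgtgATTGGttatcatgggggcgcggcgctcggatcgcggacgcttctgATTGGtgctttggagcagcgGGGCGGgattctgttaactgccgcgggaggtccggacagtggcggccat
Ankrd28, chr14:31830366-31830665, minus strand: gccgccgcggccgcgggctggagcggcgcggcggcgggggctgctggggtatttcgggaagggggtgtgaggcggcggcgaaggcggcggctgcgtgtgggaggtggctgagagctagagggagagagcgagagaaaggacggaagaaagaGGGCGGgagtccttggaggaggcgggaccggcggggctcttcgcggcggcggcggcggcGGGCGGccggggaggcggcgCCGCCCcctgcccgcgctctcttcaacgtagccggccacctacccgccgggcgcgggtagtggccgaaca
Steap2, chr5:5694040-5694339, minus strand: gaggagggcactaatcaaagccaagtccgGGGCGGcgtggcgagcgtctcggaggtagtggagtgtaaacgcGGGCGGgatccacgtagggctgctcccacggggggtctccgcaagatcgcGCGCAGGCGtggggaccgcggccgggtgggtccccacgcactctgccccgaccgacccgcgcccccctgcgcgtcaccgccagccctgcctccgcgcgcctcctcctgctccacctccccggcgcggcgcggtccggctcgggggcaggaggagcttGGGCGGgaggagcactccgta

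The windows differ in base composition as well as in motifs. Anxa1 has 3 CpG dinucleotides in its window and Ankrd1 has 7, against 44 in the window of Ankrd28 and 39 in that of Steap2. The Ccn1 window holds a TATA box followed directly by a GC box, and the TEAD motif occurs in the windows of Ccn1, Anxa1 and Ankrd1. In the Ccn1 window the TATA box and that GC box lie within the 131 bases under the site, and the TEAD and E2F matches outside them.

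The constant gene-end sites were mainly sites at gene starts. Of the 7240 sites, 5153 (71.2%, interval 70.1 to 72.2) had a gene start and no far end within reach. A further 474 (6.55%) had only the far end of a gene, 207 had both kinds, and 1406 (19.4%) lay at genes whose strand is not in the promoter table used here. Starts of genes on opposite strands shared 615 sites (8.49%). Of 17492 genes with a known strand, 5399 (30.9%) had a constant site at the start and 711 (4.06%) at the far end. Among the 13412 of these genes longer than 5 kb, the shares were 36.5% and 3.62%.

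The sites sat just inside the gene. The centre of the site nearest to a start lay a median of 232 bp downstream of it, with the middle 50% between -128 and 512 bp, and 69.6% of 5247 such sites had a centre downstream. The start itself fell inside 41.3% of them. Site width had a median of 641 bp at gene ends and 728 bp at distal constant sites, and ranged up to 3848 bp at gene ends. In the other lists the widest BRG1 region over a site had a median of 1042 bp in KO cells at 16 cycles. At 20 cycles the median was 880 bp in KO and 1016 bp in WT cells. Sites were kept for overlapping a region in each of those lists, which wide regions meet more readily. Over whole lists the median region was 526 bp in WT and 608 bp in KO cells at 16 cycles, and 356 and 360 bp at 20 cycles.

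BRG1 regions near genes recurred across the lists more often than those elsewhere. Of 8598 starting regions at gene ends, 7240 (84.2%, interval 83.4 to 85.0) were present in all 4 lists, against 37266 of 63627 other regions (58.6%, interval 58.2 to 59.0). Single lists showed the same order. KO BRG1 at 16 cycles held 91.8% of gene-end regions and 74.0% of the others, KO BRG1 at 20 cycles 90.6% and 69.6%, and WT BRG1 at 20 cycles 93.5% and 79.5%.

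**Figure D1:**
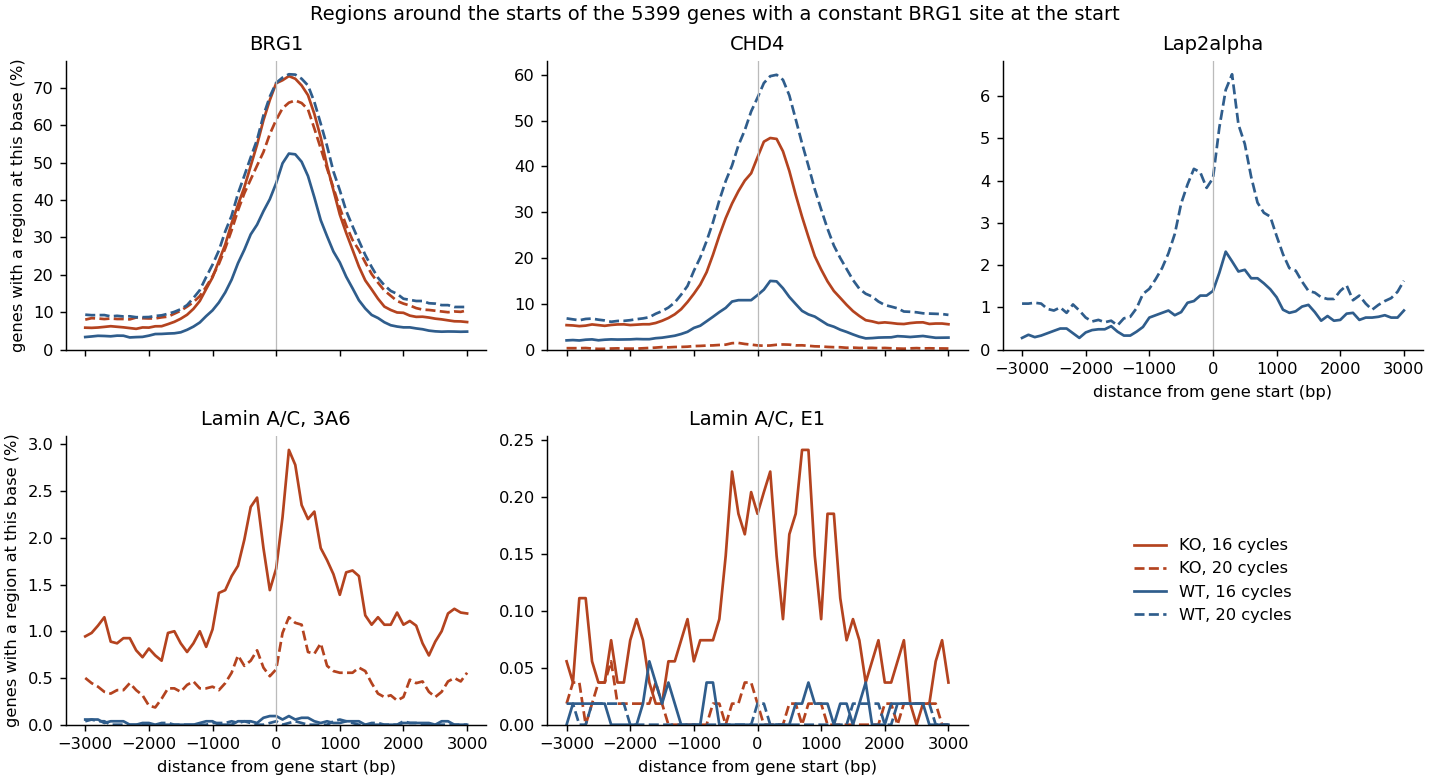
Share of the 5399 genes with a constant BRG1 site at the start (vertical axis, percent) that had a region of each library at a given base (horizontal axis, bp from the start, positive inside the gene), for KO (red) and WT (blue) at 16 (solid) and 20 cycles (dashed); vertical scales differ between panels. BRG1, CHD4, Lap2alpha and the KO 3A6 libraries were highest 200 or 300 bp inside the gene, except KO CHD4 at 20 cycles, which stayed at 1.46% or below.

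In the profiles around starts, most BRG1, CHD4 and Lap2alpha libraries were highest inside the gene. BRG1 was highest 200 bp inside the gene in KO cells at 16 cycles (73.1% of the 5399 genes), 300 bp inside in KO cells at 20 cycles (66.6%) and 200 bp inside in WT cells at both lengths (52.4% and 73.6%); these heights follow from the choice of genes. CHD4 was highest 200 bp inside in KO cells at 16 cycles (46.2%), against 15.0% at the same place in WT cells. At 20 cycles its highest value was 1.46% in KO cells, 300 bp before the start, against a highest value in WT cells 300 bp inside that was above the 46.2% of KO cells at 16 cycles. Lamin A/C by 3A6 in KO cells at 16 cycles covered 2.94% of genes 200 bp inside the gene, 1.44% at 100 bp before the start and 2.43% at 300 bp before it. In WT cells at 16 cycles the 3A6 profile never passed 0.0926%. Lap2alpha in WT cells was highest 200 bp inside at 16 cycles (2.32%) and 300 bp inside at 20 cycles (6.52%).

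CHD4 was found at most of the sites, but the genotype with the larger share differed between the pair of lists at 16 cycles and the pair at 20 cycles. At 16 cycles KO cells had a CHD4 region at 6079 of 7240 sites (84.0%, interval 83.1 to 84.8), against 3016 in WT cells (41.7%, interval 40.5 to 42.8). At 20 cycles KO cells had one at 343 sites (4.74%, interval 4.27 to 5.25), against 6622 in WT cells (91.5%, interval 90.8 to 92.1). The KO-minus-WT difference was 42.3 percentage points at 16 cycles and -86.7 at 20 cycles, so the 2 lengths gave opposite directions. The ratio of the KO to the WT share was 2.02 at 16 cycles and 0.0518 at 20 cycles. The matching ratios of list length were 1.80 and 0.0663, with 7283 regions in the KO list at 20 cycles. The parts of list length and sonication length were not tested. With the 2 lists of a pair cut to the same number of their widest regions, the shares at 16 cycles were 65.0% in KO and 41.7% in WT cells, and at 20 cycles 4.74% in KO and 22.7% in WT cells. The cut kept only KO regions of at least 418 bp at 16 cycles, against 2 bp in WT cells. At 20 cycles it kept only WT regions of at least 1198 bp, against 6 bp in KO cells.

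For CHD4, the share of sites with a region differed between distal and gene-end constant sites mainly in the WT libraries. WT CHD4 at 16 cycles was at 41.7% of gene-end sites and 63.1% of distal sites, and WT CHD4 at 20 cycles at 91.5% and 76.4%. In KO cells the shares were close, with 84.0% and 83.4% at 16 cycles and 4.74% and 5.79% at 20 cycles. Per base, KO CHD4 at 16 cycles covered 63.5% of the bases of gene-end sites and 72.6% of those of distal sites, and WT CHD4 at 16 cycles 28.2% and 51.9%. CHD4 at 16 cycles was in the KO list only at 3325 gene-end sites (45.9%), while 23.7% of all starting BRG1 regions were in that class. It was in the WT list only at 262 sites (3.62%), against 9.14% of all starting regions. At 20 cycles 15 sites (0.207%) were in the KO list only, against 0.302% of all starting regions, and 6294 (86.9%) in the WT list only, against 55.3%.

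**Figure D2:**
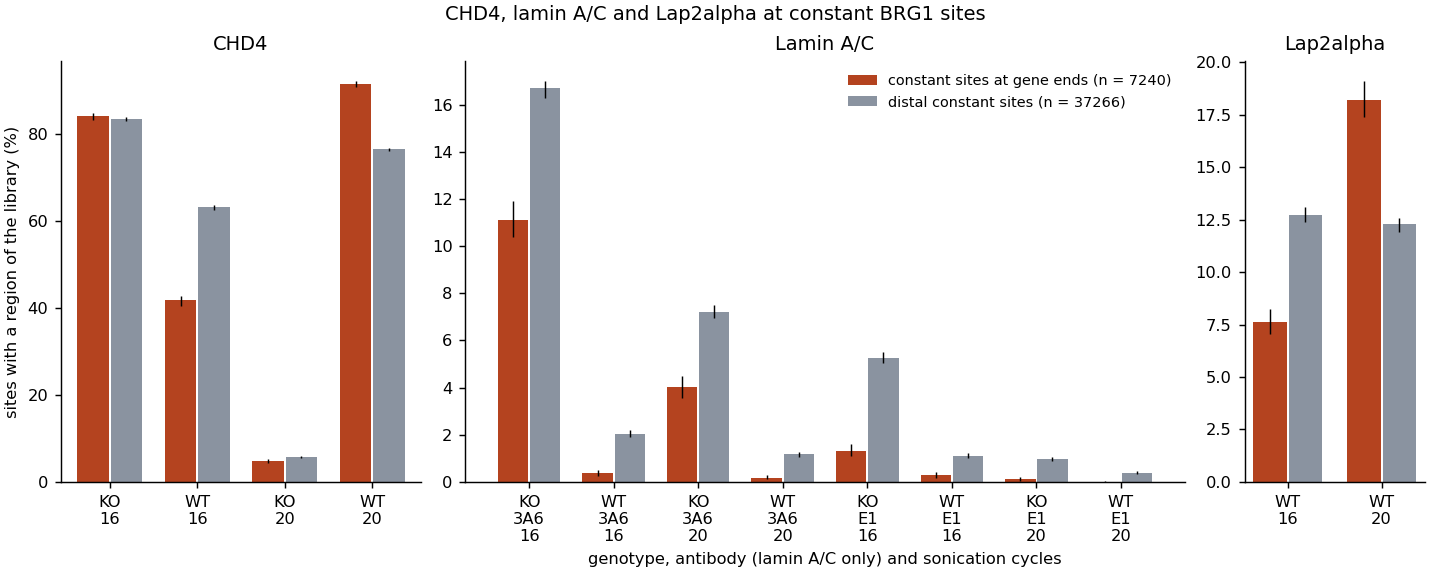
Share of constant BRG1 sites (vertical axes, percent, with a scale of its own in each panel) with a region of each CHD4, lamin A/C and Lap2alpha library, at gene ends (red, n = 7240) and at distal constant sites (grey, n = 37266); bars start at 0 and lines are 95% Wilson intervals. WT CHD4 at 16 cycles and every lamin A/C library were lower at gene ends than at distal sites, while WT CHD4 at 20 cycles and Lap2alpha at 20 cycles were higher at gene ends.

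A wider site meets a 1 bp overlap more readily, so shares of sites by width are given with the share of their bases covered. WT CHD4 at 16 cycles was at 65.6% of the 2360 sites wider than 814 bp and at 19.7% of the 2429 sites of up to 492 bp, and KO CHD4 at 16 cycles at 90.1% and 78.1%. Per base, WT CHD4 at 16 cycles covered 33.5% of the wide and 16.4% of the narrow sites, KO CHD4 at 16 cycles 58.5% and 72.2%, and WT CHD4 at 20 cycles 74.8% and 80.5%. The order by width was thus the same on both measures for WT CHD4 at 16 cycles and turned round for KO at 16 cycles. Sites that hold the gene end had WT CHD4 at 16 cycles in 48.8% of cases, against 36.8% of sites 1 to 1000 bp away from it, but per base the cover was 28.2% and 28.3%. By kind of end, WT CHD4 at 16 cycles was at 58.9% of far-end sites and 39.2% of start sites, and WT CHD4 at 20 cycles at 78.7% and 92.5%. KO CHD4 at 16 cycles was at 86.3% of far-end and 83.6% of start sites. Sites shared by starts of opposite strands had WT CHD4 at 16 cycles in 31.7% of cases and KO CHD4 at 16 cycles in 77.9%.

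All but a few sites had CHD4 somewhere. A CHD4 region was listed in 3 of the 4 libraries at 2591 sites (35.8%), in 2 at 3289 (45.4%), in 1 at 1013 (14.0%), in all 4 at 174 (2.40%) and in none at 173 (2.39%). The commonest combinations were KO at 16 cycles with WT at 20 cycles alone, at 2926 sites (40.4%), and both of these with WT at 16 cycles, at 2455 sites (33.9%). At distal sites the order of these 2 combinations was turned round, with 17.2% and 45.7%. CHD4 was there in 3 libraries at 46.8% of sites, in 2 at 27.7%, in 1 at 15.1%, in all 4 at 4.50% and in none at 5.95%.

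The widest sites without any CHD4 region lay at Kif13b, a kinesin motor, Foxj3, a forkhead factor, Piga, which acts in the synthesis of the GPI membrane anchor, Snai2, a zinc-finger repressor of epithelial genes, Ankrd28, a subunit of protein phosphatase 6, and Abca1, which exports cholesterol. The Kif13b site spanned 1421 bp, of which BRG1 regions covered 1332 bp in KO cells at 16 cycles, 1421 bp in KO cells at 20 cycles and 871 bp in WT cells at 20 cycles. At the Piga start, where the printed promoter lies, BRG1 covered 864, 120 and 692 of 1034 bp in those libraries. Neither site had a lamin A/C or Lap2alpha region in any library. The sites at Snai2, Ankrd28 and Abca1 each had a lamin A/C region in 1 KO library, covering 190, 258 and 326 bp, and the Snai2 site had Lap2alpha at 20 cycles over 436 bp.

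Wide sites with CHD4 in all 4 libraries lay at Steap2, a metalloreductase, Gsto2, a glutathione transferase, Clip1, a microtubule plus-end protein, the far end of Klf6 and Peak1, a pseudokinase of the cytoskeleton. At the Steap2 start CHD4 covered 3301 of 3716 bp in KO cells at 16 cycles and 114 bp in KO cells at 20 cycles, against 2043 and 2316 bp in WT cells at 16 and 20 cycles. The KO library at 20 cycles covered the smallest stretch at 4 of these 5 sites; at Gsto2 the smallest was WT at 16 cycles, with 198 bp against 247 bp in KO cells at 20 cycles.

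The widest gene-end sites of all lay at Plekhg3 (3848 bp), Steap2 (3716 bp), Dcn, the matrix proteoglycan decorin (3664 bp), Nrp1, a co-receptor for semaphorins and VEGF (3323 bp), the far end of Sf3b3, a splicing factor (3079 bp), and the far end of Tubd1, a tubulin (3030 bp). At Dcn, CHD4 covered 926 bp in KO cells at 16 cycles and none in KO cells at 20 cycles, against 1112 and 1826 bp in WT cells at 16 and 20 cycles. The narrowest, at Bag2, Txnrd2 and Ccny with 2 bp and at Ankrd10 with 4 bp, are whole regions as listed in the WT list at 16 cycles.

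Lamin A/C was listed at few of the sites, and at more of them in KO than in WT cells in each of the 4 pairs. With 3A6 at 16 cycles 807 sites had a region in KO cells (11.1%, interval 10.4 to 11.9), against 26 in WT cells (0.359%, interval 0.245 to 0.526). With 3A6 at 20 cycles the numbers were 290 (4.01%) in KO and 13 (0.180%) in WT cells. With E1 at 16 cycles they were 96 (1.33%) and 20 (0.276%). With E1 at 20 cycles KO cells had 8 sites (0.110%) and WT cells 0 of 7240, which allows a share of up to 0.0414% by 3 counts of the total and has a Wilson upper limit of 0.0530%. The mean difference over the 4 pairs was 3.94 percentage points with an SD of 4.83, and most of it came from the 3A6 pair at 16 cycles, without which the mean was 1.66.

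Cutting both lists of a pair to the same number of their widest regions also sets a minimum width for the longer list, which was 232 bp for KO 3A6 at 16 cycles, against 2 bp for WT. In lists of equal length, 3A6 regions were at 5.03% of sites in KO and 0.359% in WT cells at 16 cycles, and at 3.26% and 0.180% at 20 cycles. E1 regions were then at 0.387% in KO and 0.276% in WT cells at 16 cycles, and at 0.0276% and 0% at 20 cycles. At equal length the difference was thus 4.67 and 3.08 percentage points for 3A6 at 16 and 20 cycles, and 0.110 and 0.0276 for E1.

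Sites with lamin A/C in one genotype only were scarcer here than among all BRG1 regions. KO-only sites numbered 803 (11.1%) with 3A6 at 16 cycles, against 14.9% of the starting regions, and 289 (3.99%) at 20 cycles, against 7.77%. With E1 they numbered 90 (1.24%) at 16 cycles, against 3.65%, and 8 (0.110%) at 20 cycles, against 1.72%. WT-only sites numbered 22 (0.304%) and 12 (0.166%) with 3A6 at 16 and 20 cycles, against 2.24% and 1.52% of the starting regions. With E1 they numbered 14 (0.193%) and 0, against 0.818% and 0.415%.

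Few sites were listed by more than 1 lamin A/C library. Lamin A/C in 2 or more KO libraries and no WT library held for 104 sites (1.44%), against 3.34% of all starting regions. The reverse, 2 or more WT libraries and no KO library, held for 1 site (0.0138%), against 0.442%. In all, 1088 sites (15.0%) had lamin A/C in any KO library and 56 (0.773%) in any WT library. Of the 96 sites with E1 in KO cells at 16 cycles, 24 (25%) also had 3A6 in KO cells at 16 cycles. The KO 3A6 lists shared 84 sites between the sonication lengths. No site had lamin A/C in all 4 KO libraries.

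The 3 sites with lamin A/C in 3 KO libraries and no WT library, and the single site of the reverse class, were chosen after their values were seen. At the far end of Klrk1, which encodes the NKG2D receptor of natural killer cells, KO lamin A/C regions covered 268 bp (3A6, 16 cycles), 324 bp (3A6, 20 cycles) and 452 bp (E1, 16 cycles) of 904 bp. At the far end of Slc4a10, a bicarbonate transporter, they covered 210 and 198 bp with 3A6 at 16 and 20 cycles and 339 bp with E1 at 20 cycles, of 534 bp. At Cep350, a centrosomal protein, they covered 198, 286 and 236 of 758 bp in the same libraries as at Klrk1. The reverse site, at the amino acid transporter gene Slc7a12, had WT regions of 178 bp (3A6, 16 cycles) and 173 bp (E1, 16 cycles) and none in KO cells.

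Lamin A/C was lower at gene-end than at distal constant sites in all 8 libraries. In KO cells the shares at gene-end and distal sites were 11.1% and 16.7% (3A6, 16 cycles), 4.01% and 7.22% (3A6, 20 cycles), 1.33% and 5.27% (E1, 16 cycles) and 0.110% and 0.963% (E1, 20 cycles). The mean difference was -3.38 percentage points with an SD of 1.94 over the 4 libraries. In WT cells the pairs of shares were 0.359% and 2.04%, 0.180% and 1.18%, 0.276% and 1.11%, and 0% and 0.397% in the same order. Among gene-end sites, E1 in KO cells at 16 cycles was at 4.64% of far-end sites and 0.951% of start sites, and 3A6 in KO cells at 16 cycles at 16.7% and 10.8%.

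Lamin A/C was also higher in KO than in WT cells at starts of genes without BRG1, and most libraries had larger shares there than at constant starts. Of 6518 genes with no BRG1 region at the start in any library, E1 regions at 20 cycles were at the start of 21.5% in KO and 11.9% in WT cells. Among the 5399 genes with a constant start site the shares were 0.130% in KO and 0.0185% in WT cells. With 3A6 at 16 cycles KO cells had a region at 15.9% of the constant starts and 11.9% of the starts without BRG1, against 0.426% and 5.85% in WT cells. In KO cells the 3A6 library at 16 cycles was thus the one lamin A/C list with a larger share at constant starts than at starts without BRG1.

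The KO 3A6 library at 16 cycles was uneven between chromosomes. Over the 20 chromosomes with at least 100 sites, its share ran from 2.22% of 361 sites on chromosome 8 to 18.4% of 468 sites on chromosome 1, with a median of 10.3%. Distal constant sites had the same order, with 4.33% on chromosome 8 and 21.0% on chromosome 1. In WT cells the same antibody and length gave 3.74% of distal sites on chromosome 8 and 1.13% on chromosome 1. Lap2alpha at 20 cycles was at 31.3% of gene-end sites on chromosome 8 and 36% on chromosome 19, against a median of 17.9%. On the X chromosome, with 153 sites, Lap2alpha was at 15.7% and 30.1% of sites at 16 and 20 cycles. At distal sites Lap2alpha at 20 cycles was at 21.4% on chromosome 8, 22.1% on chromosome 19 and 24.1% on X, against 12.3% over all. At 16 cycles it was at 36.6% of distal sites on X, against 12.7% over all.

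Lap2alpha, measured in WT cells only, was at a minority of the sites and differed between the sonication lengths. It was listed at 552 sites at 16 cycles (7.62%, interval 7.04 to 8.26) and at 1320 at 20 cycles (18.2%, interval 17.4 to 19.1). At distal sites the shares were 12.7% and 12.3%, so gene ends were below distal sites at 16 cycles and above them at 20 cycles. Both lengths listed 200 gene-end sites (2.76%), against 2.28% of distal sites. Those 200 are 36.2% of the 16-cycle sites and 15.2% of the 20-cycle sites.

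Sites with Lap2alpha at both lengths were wide and often had CHD4 in WT cells. Their median width was 943 bp, against 603 bp for the 5568 sites with Lap2alpha at neither length. WT CHD4 at 16 cycles was at 82.0% of them, against 37.4%, and KO CHD4 at 16 cycles at 91.5%, against 82.9%. Among sites wider than 814 bp alone, WT CHD4 at 16 cycles was at 90.8% of the 120 with Lap2alpha at both lengths and at 61.3% of the 1581 with neither. KO lamin A/C by 3A6 at 16 cycles differed little between these classes, with 11% of the 200 sites and 10.9% of the 5568. E1 in KO cells at 16 cycles was at 5.50% and 1.02%.

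The 10 sites with the longest Lap2alpha stretches at both lengths, ranked by the shorter of the 2, included several at matrix, immediate early and YAP target genes. Klf6, an immediate early zinc-finger factor, had 2 such sites. At its start Lap2alpha covered 1792 and 1718 of 2333 bp at 16 and 20 cycles, and at its far end 1686 and 656 of 2615 bp. At Ccn2, which encodes a secreted matricellular protein and is a known target of YAP and TEAD factors, it covered 1486 and 933 of 2083 bp. At the start of Ccn1, a relative of Ccn2 and likewise a YAP target, it covered 895 and 944 of 1169 bp. The BRG1 region of KO cells at 16 cycles covered only 57 bp of the Ccn1 site, against 973 bp in KO cells at 20 cycles and 1111 bp in WT cells at 20 cycles.

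The other sites of that ranking had covers of the same order. At Fn1, the gene of fibronectin, Lap2alpha covered 1165 and 804 of 1717 bp at 16 and 20 cycles. At the start of Anxa1, which encodes a phospholipid-binding annexin, it covered 784 and 1290 of 1565 bp. At the start of Ankrd1, an ankyrin-repeat protein and YAP target, it covered 712 and 1022 of 1022 bp. The Anxa1 and Ankrd1 promoters printed above lie under these sites almost whole, with 294 and 300 of 300 bases. The list was completed by the far end of Vmp1, an autophagy gene (708 and 720 of 2554 bp), H2bc4, a histone H2B gene (822 and 656 of 974 bp), and Gtf3c6, a subunit of the RNA polymerase III factor TFIIIC (714 and 650 of 828 bp). The Vmp1 far-end site, at chr11:86581084-86583637 in GRCm38, ends 429 bases from the annotated hairpin of Mir21a at chr11:86584067-86584158, a gap looked up after the site was seen.

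CHD4 was present at 10 of these 10 sites in KO cells at 16 cycles and in WT cells at both lengths, against 84.0%, 41.7% and 91.5% of all gene-end sites. In KO cells at 20 cycles it was at 2 of the 10, those of Ankrd1 and the Klf6 far end, against 4.74%. Lamin A/C in a KO library was listed at 5 of them, against 15.0% of all gene-end sites, and covered no more than 352 bp at any. In a WT library it was listed at the Klf6 start alone, with E1 at 16 cycles over 334 bp, against 0.773% of all gene-end sites. The 10 sites were ranked by Lap2alpha and are wide.

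**Figure D3:**
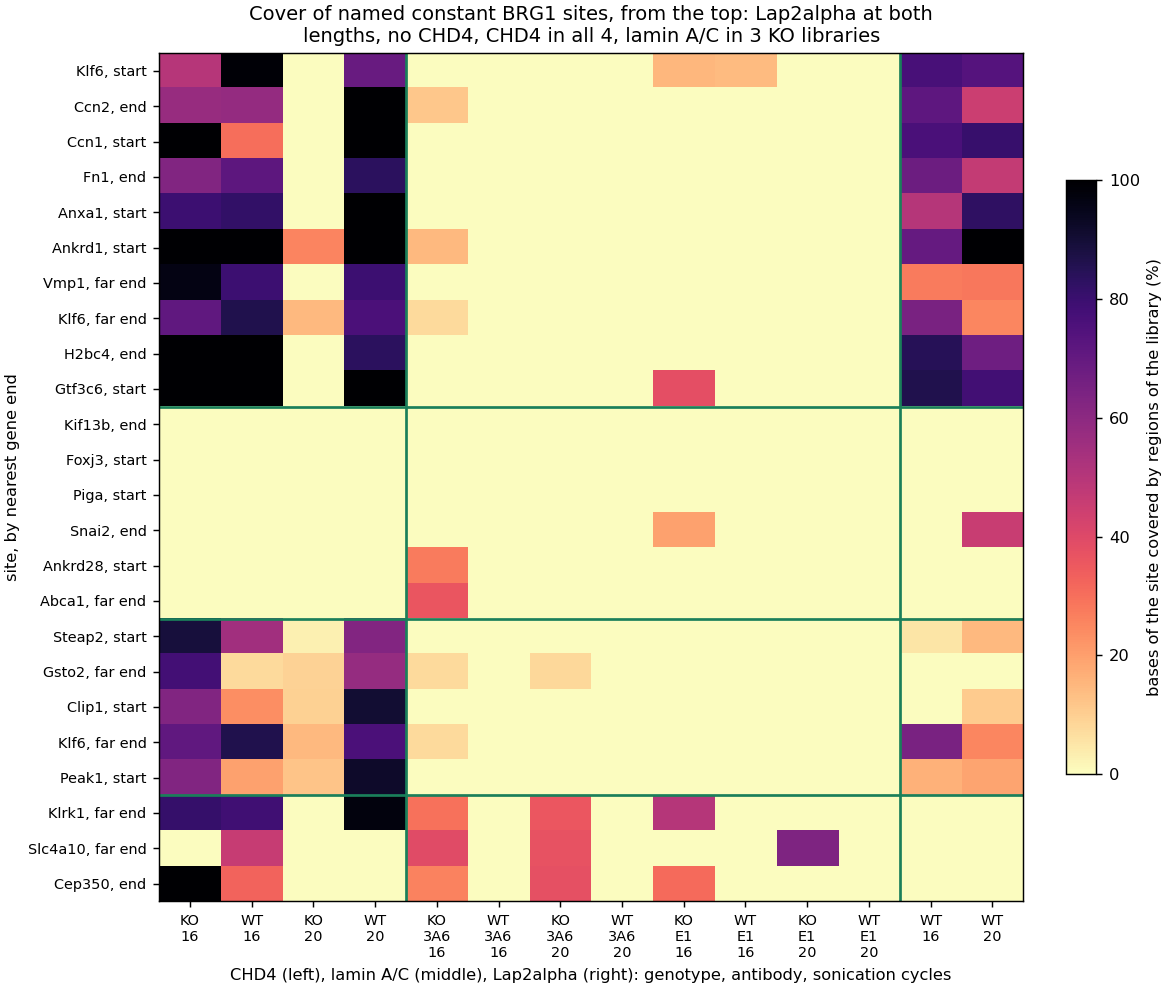
Percent of the bases of each named site (colour, 0 to 100) covered by regions of the 4 CHD4, 8 lamin A/C and 2 Lap2alpha libraries (columns, KO left of WT within each pair), for sites grouped from the top by Lap2alpha at both lengths, no CHD4, CHD4 in all 4 libraries and lamin A/C in 3 KO libraries (rows). CHD4 in KO cells at 20 cycles was at 0 at 8 of the 10 sites with Lap2alpha at both lengths, and the WT lamin A/C columns were at 0 except at the Klf6 start.

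Gene lists were described by their counts beside those over all 21887 protein-coding genes, of which 7153 (32.7%) had a constant site at an end. The fibroblast, contractile and immediate early lists were above that share and the lists of other cell types below it. Lists not particular to fibroblasts were above it as well. Sites were at 13 of 17 chaperone (76.5%), 17 of 25 housekeeping (68.0%), 8 of 13 retinoblastoma and E2F (61.5%) and 19 of 31 cell cycle genes (61.3%). Of 30 fibroblast matrix genes 23 had a site (76.7%), of 17 fibroblast identity genes 10 (58.8%), of 20 contractile and YAP target genes 14 (70.0%) and of 24 immediate early genes 17 (70.8%). Sites were at 0 of 11 endothelial, 1 of 17 keratinocyte, 1 of 16 leukocyte, 3 of 20 neuronal and 3 of 18 muscle, adipocyte and melanocyte genes. Olfactory receptor genes had a site in 11 of 1110 cases (0.991%), vomeronasal receptor genes in 3 of 353 (0.850%) and HOX genes in 8 of 39 (20.5%). Region lists give no expression, so these counts describe BRG1 alone.

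**Figure D4:**
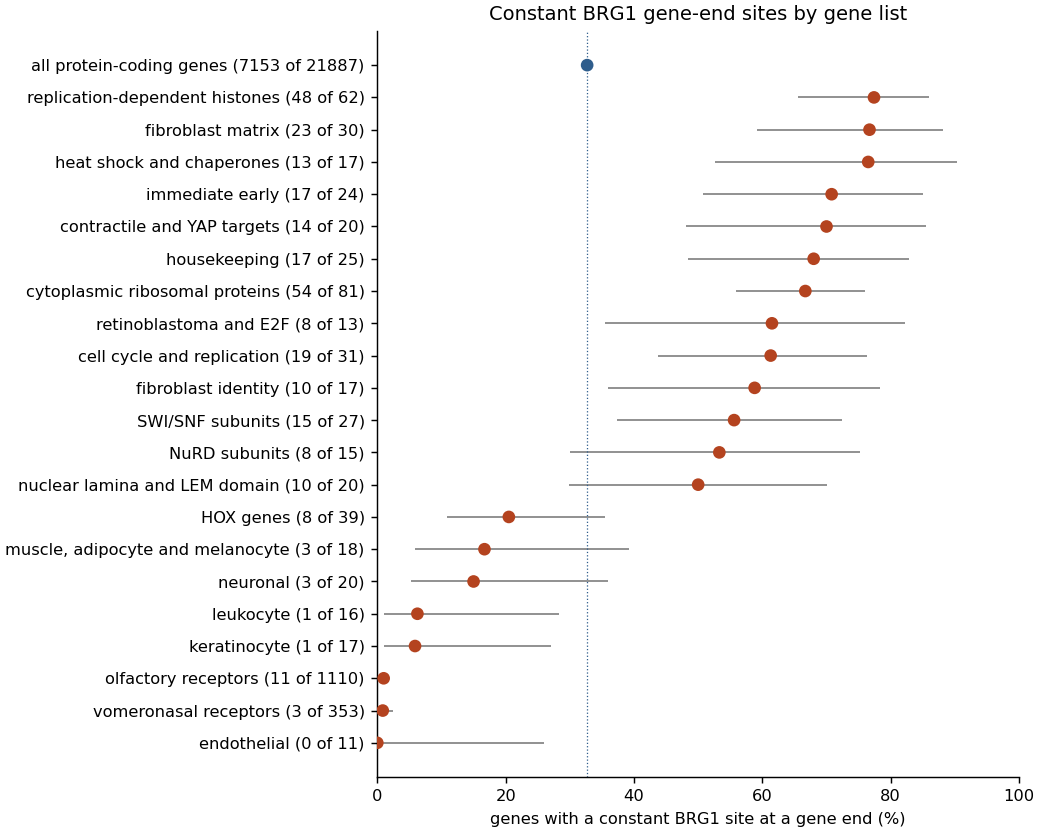
Share of the genes of each list (rows, with the number having a site and the number found) that had a constant BRG1 site at an end (horizontal axis, percent, with 95% Wilson intervals); the blue point and dotted line mark all protein-coding genes at 32.7%. Histone, matrix and chaperone genes stood highest and receptor and endothelial genes lowest.

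Among matrix genes the sites carried CHD4 in KO cells at 16 cycles in 25 of 25 cases and in WT cells at 16 cycles in 18 of 25 (72.0%), against 84.0% and 41.7% of all gene-end sites. The site at Col1a1, an alpha chain of type I collagen, had CHD4 over 974 and 350 of 974 bp in KO cells at 16 and 20 cycles, against 452 and 974 bp in WT cells. The start site of Col1a2, the other alpha chain of type I collagen, had CHD4 over 2112 of 2198 bp in KO cells at 16 cycles and none at 20 cycles, against 2082 and 2198 bp in WT cells. Lap2alpha covered 946 and 438 bp of it at 16 and 20 cycles. Col3a1, Col5a1 and Col5a2, fibrillar collagens as well, had sites of 1260, 384 and 1454 bp. Of the identity genes, the start of Pdgfra, a growth factor receptor of mesenchymal cells, had a site of 506 bp with CHD4 over 506 bp in KO cells at 16 cycles, against 502 and 506 bp in WT cells at 16 and 20 cycles. The start site of Twist2, a mesenchymal helix-loop-helix factor, had CHD4 over 120 of 1284 bp in KO cells at 16 cycles, against none in WT cells at 16 cycles and 569 bp at 20 cycles.

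Immediate early and contractile genes had Lap2alpha more often than gene-end sites at large. At least 1 length listed Lap2alpha at 18 of 23 immediate early sites (78.3%) and 14 of 24 contractile and YAP target sites (58.3%), against 1672 of 7240 (23.1%). At the start of Fos it covered 228 of 228 bp at 16 cycles and none at 20 cycles, and at Fosl1 none at 16 cycles and 476 of 1360 bp at 20 cycles. At the start of Acta2, smooth muscle actin, it covered 224 of 894 bp and at the start of Tpm1, a tropomyosin, 554 of 996 bp, both at 20 cycles alone. One of 2 start sites of Actn1, an actin crosslinker, had Lap2alpha over 192 and 214 of 334 bp at 16 and 20 cycles. The median widths of these sites, 740 and 696 bp, were above the 641 bp of all gene-end sites.

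Replication-dependent histone genes stood furthest from the other lists. Of 62 such genes 48 (77.4%) had a site, against 32.7% of all protein-coding genes. They share 42 sites, 35 on chromosome 13 and 7 on chromosome 3. Lap2alpha was listed at 37 of the 42 at 16 cycles (88.1%) and at 29 at 20 cycles (69.0%), against 7.62% and 18.2% of all gene-end sites. Both lengths listed 26 (61.9%), against 2.76%. CHD4 at 16 cycles was at 41 of the 42 in KO cells (97.6%) and at 38 in WT cells (90.5%), against 84.0% and 41.7%. The H1f4 site, at a linker histone gene, had Lap2alpha over 484 and 484 of its 484 bp at 16 and 20 cycles, and the H1f3 site over 444 and 438 of 444 bp. KO lamin A/C was listed at 7 of the 42 (16.7%), against 15.0% of all gene-end sites. The genes lie in clusters and near-identical copies could share reads, so the 42 sites are not independent.

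Ribosomal protein, housekeeping and chaperone genes had Lap2alpha at a larger share of sites than gene-end sites at large. Of 81 cytoplasmic ribosomal protein genes 54 (66.7%) had a site, against 32.7% of all protein-coding genes. Lap2alpha was at 13 of their 60 sites at 16 cycles (21.7%) and 28 at 20 cycles (46.7%), against 7.62% and 18.2% of all gene-end sites. CHD4 at 16 cycles was at 49 of the 60 in KO cells (81.7%) and 18 in WT cells, against 84.0% and 41.7% of all gene-end sites. Among them, the start of Rpl10 had Lap2alpha over 412 of 552 bp at 20 cycles, and those of Rpl10a and Rpl14 had none. Housekeeping genes had 20 sites, 11 with Lap2alpha at 1 length or both (55.0%, against 23.1%), among them one of 2 start sites of B2m, the light chain of class I histocompatibility molecules, with 410 and 408 of 874 bp at 16 and 20 cycles. Chaperone genes had 17 sites, 7 with Lap2alpha (41.2%, against 23.1%).

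The genes of the proteins studied had sites of their own. Of 27 SWI/SNF subunit genes 15 (55.6%), of 15 NuRD subunit genes 8 (53.3%) and of 20 lamina and LEM-domain genes 10 had one. The share was 32.7% of all protein-coding genes, but 68.0% of housekeeping and 61.3% of cell cycle genes, so it was not particular to these lists. The Smarca4 start, the gene of BRG1, had CHD4 over 768 of 964 bp in KO cells at 16 cycles and over 964 bp in WT cells at 20 cycles, and none in the other CHD4 libraries. The Tmpo start had a site of 1016 bp, with CHD4 over 1016 bp in KO cells at 16 cycles, against 828 and 898 bp in WT cells at 16 and 20 cycles. The sites of Hdac1 and Hdac2, the deacetylases of NuRD, had CHD4 over 362 of 362 and 630 of 630 bp in KO cells at 16 cycles and none in WT cells at 16 cycles. At 20 cycles the order was the other way, with none in KO cells and 362 and 474 bp in WT cells. Lap2alpha was at 4 of 17 SWI/SNF sites (23.5%) and 2 of 10 NuRD sites (20.0%), near the 23.1% of all gene-end sites. Cell cycle genes had Lap2alpha at 3 of 22 sites (13.6%) and retinoblastoma and E2F genes at 2 of 8 (25%).

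Promoter windows under the sites were richer in CpG than all windows and close to other windows with BRG1. A constant gene-end site covered at least 150 of the 300 bases in 2515 of 21238 RefSeq promoter windows of protein-coding genes. Their median GC content was 62.3%, against 56.3% of all windows and 50.3% of the 10101 with no BRG1 region in any list. They held a median of 23.0 CpG dinucleotides, against 13 and 4. The remaining 8622 windows had 60.7% GC and 20.0 CpG dinucleotides. The 12 motifs searched on both strands were CCAAT (the CCAAT box, bound by NF-Y), GGGCGG (the GC box of SP and KLF factors), CCGGAAG (ETS factors), GCGCANGCG (NRF1), TGACGTCA (the CRE of CREB and ATF factors), TGANTCA (AP-1), GGAATG (TEAD factors), CACGTG (an E-box of MYC, MAX and USF factors), AAGATGGCG (YY1), TTGGCGC (E2F factors), TATAAA (the TATA box) and TGTGGTT (RUNX factors). No motif holds another whole, though neighbouring matches can overlap.

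Most motifs rich in C and G were commoner under the sites than in all windows, and the TATA box scarcer. The GC box was in 65.4% of the 2515 windows, against 46.2% of all windows and 26.8% of those without BRG1. The ETS motif was in 22.0%, against 11.6% and 3.80%, the NRF1 motif in 14.1%, against 8.58% and 2.86%, and the E-box in 10.2%, against 7.84% and 5.44%. The CRE was in 4.33%, against 2.24% and 1.09%, the E2F motif in 5.61%, against 3.08% and 1.74%, and the YY1 motif in 3.14%, against 1.83% and 0.406%. The TATA box was in 8.15%, against 12.6% and 18.7%. The CCAAT box (36.7%, against 38.2% and 37.9%) and AP-1 (6.92%, against 6.99% and 8.23%) differed little, while TEAD was in 11.8%, against 13.6% and 15.2%, and RUNX in 3.46%, against 4.71% and 5.81%. The remaining 8622 windows were close to those under the sites for most motifs. The GC box was in 63.2% of them, the NRF1 motif in 13.7%, the E-box in 9.96% and the YY1 motif in 3.12%. Lower shares there were those of ETS (17.6%), the CRE (2.97%), E2F (3.92%), AP-1 (5.57%) and the TATA box (6.78%). The TATA box was thus scarcer under the sites than in all windows, but not than in these remaining windows. Base composition differs between the window sets, and its part in the motif shares was not tested.

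**Figure D5:**
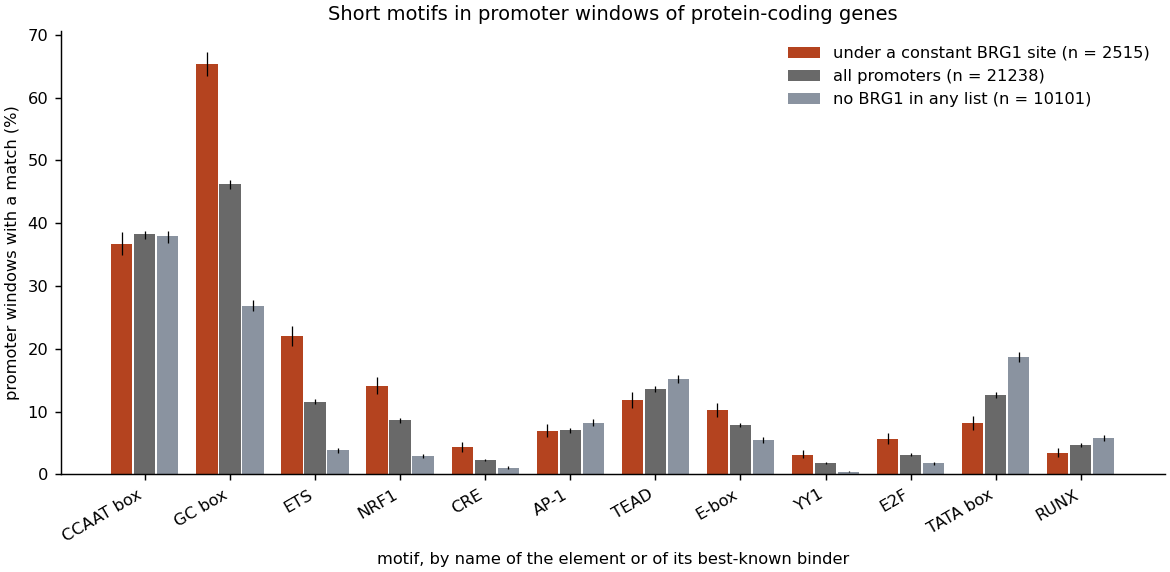
Share of promoter windows of 300 bases (vertical axis, percent, with 95% Wilson intervals) that hold each of 12 short motifs on either strand (horizontal axis), for windows under a constant gene-end site (red), all windows (dark grey) and windows with no BRG1 in any list (light grey). GC box, ETS and NRF1 matches were commonest under the sites, TATA box matches in windows without BRG1.

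Windows whose BRG1 site had Lap2alpha at both lengths had a lower GC content than those whose site had it at neither. A library was counted for a window when it overlapped the site over that window. Its region can therefore lie outside the window, and the motif shares do not describe sequence under Lap2alpha itself. The 87 such windows had a median of 56.0% GC and 16.0 CpG dinucleotides, against 62.3% and 23.0 for the 1809 with Lap2alpha at neither length. The TATA box was in 19.5% of them (interval 12.6 to 29.1), against 7.19% (interval 6.08 to 8.47), and the TEAD motif in 18.4% (interval 11.6 to 27.8), against 11.7% (interval 10.3 to 13.3). The ETS motif was in 12.6%, against 22.4%. Of the 200 gene-end sites with Lap2alpha at both lengths, 26 lie at replication-dependent histone genes, which are clustered. How many of the 87 windows are histone promoters was not counted, and such windows are not independent. The 243 windows with Lap2alpha at 16 cycles, which include the 87, had 58.0% GC, the TATA box in 16.5% and ETS in 14.0%. The 550 with Lap2alpha at 20 cycles, which include them too, had 62.7% GC, the TATA box in 9.45% and ETS in 22.9%, near the windows with neither. A motif match is a run of letters and was not taken as a bound site.

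Shares by base composition differed between libraries. They count windows whose BRG1 site had a region of the library, whether or not that region reached the window. With the 2515 windows cut into 4 groups of 608 to 650 by GC content, from the lowest to the highest, WT CHD4 at 16 cycles was at 60.5%, 45.1%, 40.6% and 46.9% of windows, and KO CHD4 at 16 cycles at 89.1%, 89.0%, 85.9% and 88.7%. At 20 cycles WT CHD4 ran the other way, with 89.5%, 93.4%, 94.7% and 96.1%, and KO CHD4 was at 5.85%, 5.97%, 5.76% and 6.45%. KO lamin A/C by 3A6 at 16 cycles was at 15.5%, 13%, 9.54% and 10.0%. Lap2alpha at 16 cycles was at 15.8%, 7.38%, 7.73% and 7.42%, and at 20 cycles at 21.5%, 20.9%, 23.5% and 21.6%. The group lowest in GC had the highest shares of WT CHD4 and Lap2alpha at 16 cycles.

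Values just inside and just outside the limit of 1 kb were as follows. The 525 sites 751 to 1000 bp from the nearest gene end and the 435 constant sites 1001 to 1250 bp from it had KO CHD4 at 16 cycles in 78.7% and 81.8% of cases and WT CHD4 at 16 cycles in 43.0% (interval 38.9 to 47.3) and 52.6% (interval 47.9 to 57.3). The WT CHD4 share was thus higher just outside the limit, and 63.1% over all distal sites. KO lamin A/C by 3A6 at 16 cycles was at 8.57% and 11% of them, and Lap2alpha at 20 cycles at 13% and 17.7%.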

How the data were processed

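ChIP-seq of BRG1, CHD4, lamin A/C and Lap2alpha was described from 18 region lists, 1 per library. The authors deposited 3 columns per list, chromosome, start and end, so the unit is a position in base pairs (other than a count, signal or score). The submitters' processing notes name GRCm38, MACS2 2.1.4, HOMER 4.11.1, SAMtools, deepTools and bedtools without roles. For the aligner, calling thresholds, controls and pooling, nothing is given in the sources used here. Regions were called in lists of unequal length, and presence of a region is not an amount of protein.

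Intervals were merged within each list, leaving out those of width 0 (1 to 1201 per list) and 6 on other sequences. Gene ends came from 21887 RefSeq protein-coding genes of GRCm38.p6, of which 17492 have a strand in the promoter table. A library was present at a site when it overlapped by at least 1 bp, and differences are in percentage points between KO and WT libraries of the same antibody and cycles. With 1 library per group there is no test. Interval operations were checked on simulated data. Python 3.11.15, numpy 2.4.6, pandas 2.3.3, SciPy 1.17.1 and matplotlib 3.10.9 were used.

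Sites were named by the nearest gene: up to 10 with Lap2alpha at both lengths, ranked by the smaller overlap, up to 6 each with CHD4 in no library and in all 4, the 6 widest, the 4 narrowest, and up to 5 genes per gene list in list order. Sites with lamin A/C in all 4 KO libraries, all 4 WT libraries or all 8 libraries were to be named as well, and 0 met each of these rules. Olfactory receptor, vomeronasal receptor and predicted genes were counted, not named, and 1 of the sites with CHD4 in all 4 libraries is not reported here. The members and lists were chosen with earlier results of these data known. Alternatives were other merging, windows, overlaps, a BRG1 list of 20 cycles to start from, autosomes, equal list lengths and single antibodies or lengths.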

Additional observations from a re-analysis of the deposited data

Results flagged for a closer look

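The KO-minus-WT difference in the share of the 7240 sites with CHD4 was 42.3 percentage points at 16 cycles and -86.7 at 20 cycles, and stands here because the 2 sonication lengths gave opposite directions. The difference between the lengths was not tested, since each rests on 1 KO and 1 WT library. The KO list at 20 cycles had 7283 regions, against 109769 in the WT list, while at 16 cycles KO had 88788 and WT 49441. The part of list length in the difference between the lengths was not tested.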

How the results depend on the processing

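The number of sites ran from 5977 with a 500 bp window to 8803 with a 2 kb window. No KO-minus-WT or gene-end minus distal difference reversed under any alternative run. The number of sites and the Lap2alpha share have no sign to reverse. Starting from the WT BRG1 list at 16 cycles without merging had to give the same values, since its 72225 intervals are 72225 regions. The CHD4 difference at 16 cycles was 40.4 percentage points with a 2 kb window, 47.4 with at least 50% of the site covered and 23.3 with equal numbers of regions. At 20 cycles it was -87.6 with a 500 bp window, -85.3 with 2 kb, -83.6 with 50% of the site covered and -18.0 with equal numbers of regions. Equal numbers left only KO CHD4 regions of at least 418 bp at 16 cycles and WT regions of at least 1198 bp at 20 cycles. With 50% of the site covered, the Lap2alpha mean was 4.86%, against 12.9% as reported, and the mean gene-end minus distal difference of KO lamin A/C -0.609, against -3.38. The mean lamin A/C difference of 3.94 became 0.95 with 50% of the site covered, 1.97 with equal numbers of regions, 7.31 for 3A6 alone, 0.580 for E1 alone 1.97 at 20 cycles alone, 5.92 at 16 cycles alone and, in an alternative chosen after seeing the data, 1.66 without the 3A6 pair at 16 cycles. The gene-end minus distal difference of -3.38 became -1.93 with equal numbers of regions and -2.04 at 20 cycles alone. The cause of these moves was not tested. The SD over libraries spans unlike antibodies and lengths, so a move within it can still be large. No paired analysis was possible because each group has 1 library and no replicate number; the 4 lamin A/C pairs share antibody and length, and their differences carry no test. Read depth is unknown, so a region that is not listed may have been missed.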
